A study of Mus musculus with 20 samples.

Results

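The comparison described here asks whether the expression difference that went with a neural tube defect (NTD) in mouse embryos exposed to mono-2-ethylhexyl phthalate (MEHP) was also present in the visceral yolk sac, or differed from it. It rests on 12 of the 20 arrays of the series, 3 in each of 4 groups, and was made for all 20794 genes measured. The groups were CD-1 mouse embryos without NTD, embryos with NTD, yolk sacs without NTD and yolk sacs with NTD, all cultured as whole conceptuses with 100 µg/ml MEHP over 24 h, starting on gestational day 8 and ending on day 9. The other 8 arrays were controls with 0.01% DMSO, 3 without NTD and 1 with NTD for each tissue. They entered the fit through the spread between arrays and are otherwise described only beside the results. MEHP is the monoester formed from the plasticizer di(2-ethylhexyl) phthalate. The labels do not say whether a sample was 1 conceptus or a pool, or which litters it came from. The p-values therefore reflect how far these samples differ among themselves, which may be technical in part. The sex-linked gene Ddx3y varied within each MEHP group, so the arrays of a group were not all repeats of 1 sample. In MEHP embryos it was 3.72, 7.86 and 3.64 without NTD and 3.89, 3.78 and 8.08 with NTD. In MEHP yolk sacs it was 4.15, 8.35 and 3.54 without NTD and 3.89, 3.935 and 8.55 with NTD. Embryo and yolk sac arrays may come from the same conceptuses and were treated as independent in the main fit. In both tissues Ddx3y was high at the same positions of the deposited table. With table position as a fixed block, 0 genes passed for the difference.

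The neural tube forms when the neural plate folds, the folds meet and their edges fuse. An NTD is left where they do not. As the tube forms the first neurons leave the cell cycle, and neural crest cells leave the dorsal edge to form head mesenchyme. The visceral yolk sac has an outer endoderm that takes up and digests maternal protein and secretes plasma proteins, and an inner mesoderm that bears vessels and blood islands. It supplies the embryo with amino acids before the placenta works. The integrated stress response is a pathway in which kinases that sense misfolded protein or missing amino acids slow translation and, through the transcription factor ATF4, raise genes of amino acid synthesis and transport.

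The tissue labels matched the markers. The mean log2 level of 7 visceral endoderm markers was 12.48 to 12.72 on the 6 MEHP yolk sac arrays, and 5.60 to 7.955 on the 6 MEHP embryo arrays. The mean of 4 neural markers was 9.09 to 9.55 in embryos and 3.26 to 3.58 in yolk sacs, where nonspecific control probe sets averaged 3.70 to 3.83. A pair of embryo arrays stood apart. Embryo array 3 without NTD had the highest endoderm marker mean (7.955, against 5.60 and 5.94 on the other arrays of its group and 6.14, 7.19 and 6.69 with NTD). Embryo array 1 with NTD had the highest erythroid marker mean (11.66, against 10.77 and 10.75) and the largest 3′ minus 5′ difference of Gapdh probe sets among MEHP embryos (0.352, against 0.088 to 0.124). Without these 2 arrays, a setting chosen after seeing the data, 19 genes passed in embryos, 9 of them among the 20 below, and 35 passed for the shared association, 22 of them among the 37 below. Among the MEHP arrays of each tissue, those without NTD precede those with NTD in the deposited table, so table order and NTD status cannot be told apart.

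Across all genes the NTD differences of the 2 tissues were almost unrelated. Their Pearson correlation over 20794 genes was 0.0433 and the Spearman correlation −0.00504, as a description, since genes of 1 array share its preparation and are not independent. The sign was the same for 49.9% of genes. In embryos 20 genes passed an adjusted p of 0.05 (0.0962% of genes tested), 4 higher (0.0192%) and 16 lower (0.0769%) with NTD. In yolk sacs 30 genes did (0.144%), 24 higher (0.115%) and 6 lower (0.0289%). These calls rested on the spread over all 20 arrays. With each tissue fitted alone 5 genes passed in embryos and 0 in yolk sacs (limma, 2002 at an unadjusted p below 0.05 in yolk sacs), and leaving out each array in turn gave 7 to 28 and 4 to 59. The yolk sac count was 4 without yolk sac array 2 without NTD or 3 with NTD. At an unadjusted p below 0.05 there were 1409 genes (6.78%) in embryos and 1844 (8.87%) in yolk sacs. Of the 209 genes (1.01%) that met it in both, 70 were higher in both (0.337%), 64 lower in both (0.308%), 24 higher in embryos and lower in yolk sacs (0.115%) and 51 the reverse (0.245%). Prcp alone passed in both. Embryo calls were therefore mostly lower with NTD and yolk sac calls mostly higher.

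The difference between the tissues itself passed the threshold for 3 genes (0.0144%): Lhx9, Epha3 and Zfp462. All 3 were lower with NTD in embryo relative to yolk sac. At an unadjusted p below 0.05 the tissues differed for 1589 genes (7.64%), 555 with the embryo difference above that of the yolk sac and 1034 below it. The mean of the NTD differences of both tissues, called the shared association here, passed for 37 genes (0.178%), 22 higher (0.106%) and 15 lower (0.0721%), and 1664 genes (8%) met the unadjusted threshold. Of these 37, 27 had an unadjusted p below 0.05 and the same sign in each tissue, 6 met that p in embryo alone and 4 in yolk sac alone, so a pass does not by itself mean a difference in both tissues.

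**Figure D1:**
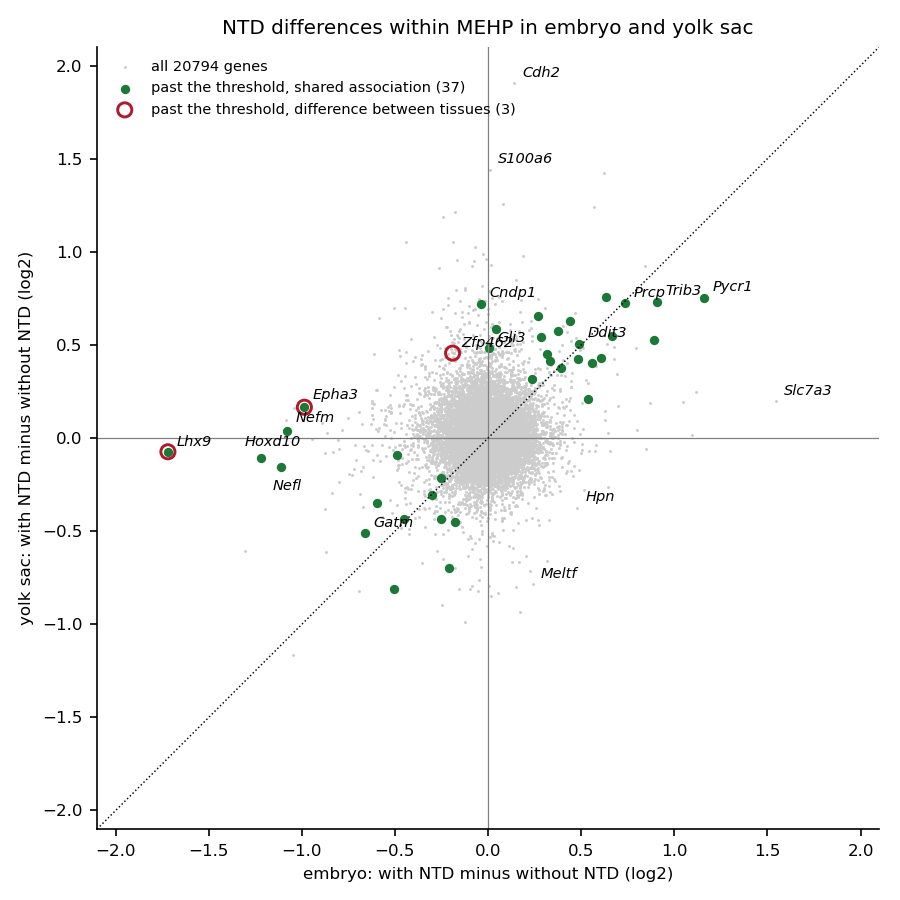
The log2 NTD difference in MEHP embryos (horizontal axis) is plotted against that in MEHP yolk sacs (vertical axis) for all 20794 genes, with the 37 genes past the shared threshold as filled points, the 3 past the threshold for the difference ringed, and equality as a dotted line. Lhx9, Epha3, Nefl, Nefm and Hoxd10 lie far left near zero on the yolk sac axis, Cdh2 and S100a6 lie high near zero on the embryo axis, and Pycr1, Trib3, Prcp and Ddit3 lie up and to the right.

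Lhx9 encodes a LIM homeodomain transcription factor of early neurons, and it had the largest called difference between tissues. Its log2 level in MEHP embryos without NTD was 6.53, 6.29 and 6.35, and with NTD 4.70, 4.18 and 5.13. In yolk sacs it was 3.38, 3.46 and 3.44 without NTD and 3.35, 3.37 and 3.35 with NTD. The embryo groups did not overlap, and every yolk sac value lay under the nonspecific control level. In embryos Lhx9 fell by 1.72 ± 0.16 (limma SE, n = 3 per group, adjusted p = 0.000128), the yolk sac difference was −0.07 ± 0.16, and the difference between them was −1.65 (95% interval −2.12 to −1.18, adjusted p = 0.0137). Of 4 Lhx9 probe sets, the 2 with the highest mean levels gave differences of −1.65 and −1.77, and the others, at mean levels of 3.85 and 3.18, gave −0.01 and −0.26.

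Epha3 encodes an ephrin receptor tyrosine kinase that guides cells and axons. Its level in embryos was 6.58, 6.50 and 6.30 without NTD and 5.46, 5.68 and 5.28 with NTD, with no overlap. In yolk sacs it was 3.28, 3.15 and 3.39 against 3.56, 3.29 and 3.45, overlapping and under the nonspecific level. It fell by 0.99 ± 0.11 in embryos (adjusted p = 0.00107), and the yolk sac difference was 0.17 ± 0.11. The difference between tissues was −1.15 (−1.48 to −0.82, adjusted p = 0.0137). The other Epha3 probe sets, at mean levels of 4.11, 3.59 and 3.17, gave −0.93, −0.27 and −0.02 for the difference between tissues.

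Zfp462 encodes a zinc finger protein of chromatin, and unlike Lhx9 and Epha3 it was well above the nonspecific level in both tissues. In yolk sacs its level was 7.58, 7.41 and 7.36 without NTD and 7.90, 7.85 and 7.96 with NTD. In embryos it was 10.50, 10.54 and 10.52 without and 10.21, 10.42 and 10.36 with NTD. Neither pair of groups overlapped, and the differences had opposite signs. Zfp462 rose by 0.46 ± 0.07 in yolk sacs (adjusted p = 0.0184), the embryo difference was −0.19 ± 0.07 (adjusted p = 0.574), and the difference between tissues was −0.65 (−0.85 to −0.44, adjusted p = 0.0368). The other 2 Zfp462 probe sets, at mean levels of 8.26 and 4.44, gave differences between tissues of −0.26 and −0.27. In yolk sacs they gave 0.13 and 0.07, and in embryos −0.13 and −0.20. The size of the yolk sac rise thus depended on the probe set.

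The calls depended on which arrays entered the fit. With the 12 MEHP arrays alone no gene passed for the difference (limma, 1803 at an unadjusted p below 0.05), and Lhx9, Epha3 and Zfp462 had adjusted p of 0.084, 0.0643 and 0.0928 at the same log2 differences. Without the 2 embryo arrays that stood apart, 7 genes passed, among them Lhx9 and Epha3, while Zfp462 had −0.59 (adjusted p = 0.1).

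**Figure D2:**
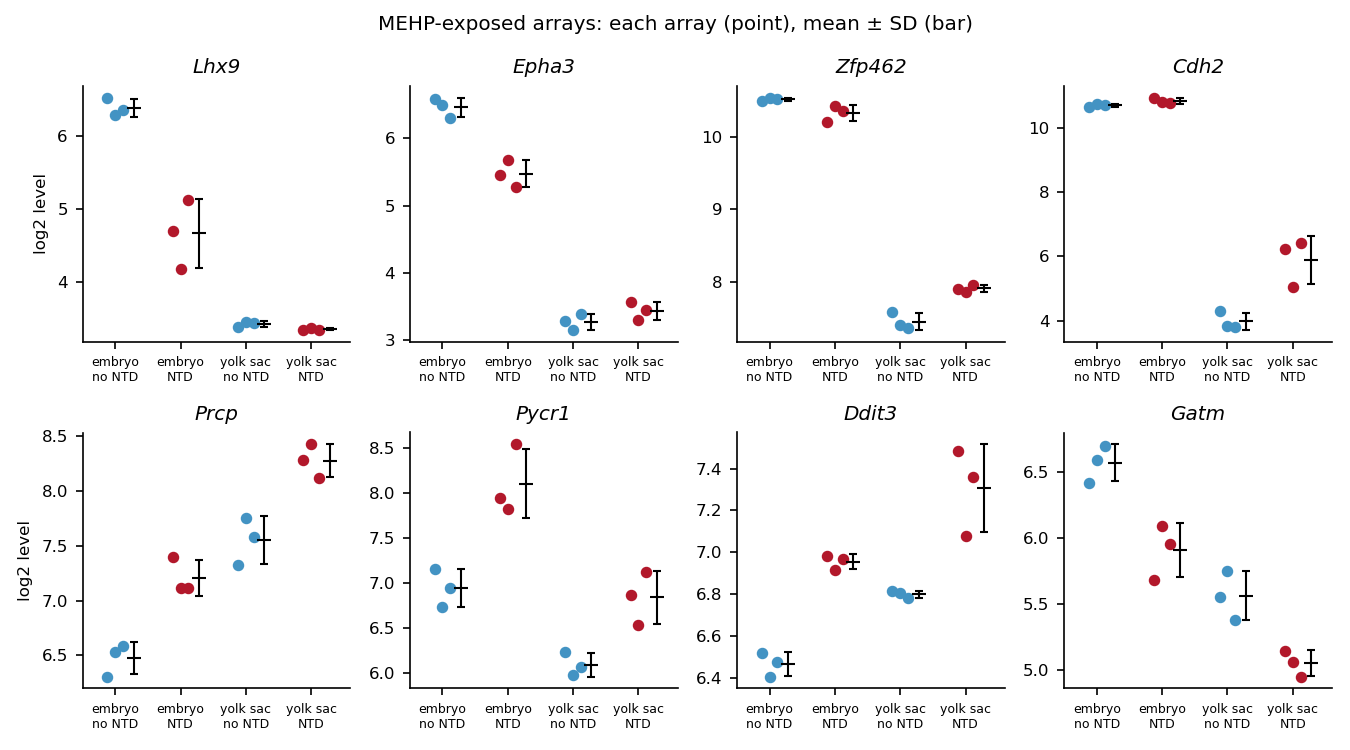
The log2 level of 8 genes on each MEHP array is shown by tissue and NTD status (points, 3 arrays per group), with the group mean ± SD beside them, and the vertical axes do not start at 0. Lhx9 and Epha3 separate in embryos and lie together in yolk sacs, Cdh2 separates in yolk sacs, and Prcp, Pycr1, Ddit3 and Gatm separate in both tissues.

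Below the threshold, the genes with the smallest p for a lower embryo difference were Sox4, Cndp1, Nefm, Dcx and Pou4f1, each with an adjusted p of 0.0621, then Slitrk4, Psd3, Gli3 and Macroh2a2. On the other side no gene passed, and the smallest p belonged to Hpn, a membrane serine protease of epithelia (difference 0.85 ± 0.15, adjusted p = 0.0621). Hpn was 4.76, 4.66 and 4.79 in embryos without NTD and 5.14, 5.39 and 5.12 with NTD, and 7.98, 8.23 and 8.36 against 7.99, 7.77 and 7.70 in yolk sacs. Its embryo groups did not overlap, and its yolk sac groups did. Meltf, a transferrin family protein of the cell surface, had a difference of 1.02 ± 0.20 (adjusted p = 0.102), from a fall of the yolk sac level by 0.78 ± 0.14 (adjusted p = 0.0347) and 0.24 ± 0.14 in embryos. Meltf was 7.04, 6.67 and 6.55 in yolk sacs without NTD and 6.18, 5.89 and 5.84 with NTD, with no overlap.

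The gene lists were chosen with earlier results of these data known, so their counts and ranks are descriptions and no independent support. Among the lists, neuronal differentiation had the most calls in embryos. Of 41 listed genes, 7 fell in embryos and none rose, against 0 calls in either direction in yolk sacs. At an unadjusted p below 0.05, 23 were lower and 2 higher in embryos (3.66% and 3.12% of all genes). In yolk sacs 2 were lower and 3 higher (3.32% and 5.55% of all genes). The median difference over the list was −0.31 in embryos and 0.02 in yolk sacs, beside −0.000885 and 0.0113 over all genes. The difference between tissues had a median of −0.35, and 19 members were lower and 2 higher at an unadjusted p below 0.05 (4.97% and 2.67% of all genes), with Lhx9 alone past the adjusted threshold.

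The neuronal list's median level was 6.22, 5.996 and 6.05 on embryo arrays without NTD and 5.69, 5.74 and 5.60 on those with NTD. All 3 arrays with NTD lay below all 3 without. In yolk sacs the list's median level was 4.26, 4.29 and 4.46 against 4.22, 4.24 and 4.30, close to the nonspecific level. In these bulk samples fewer cells of a type and less RNA per cell cannot be told apart.

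The neurofilament genes Nefm and Nefl, which encode structural proteins of axons, moved together. Nefm was 8.71, 8.49 and 8.36 in embryos without NTD and 7.07, 7.66 and 7.60 with NTD, and it fell by 1.08 ± 0.14 (adjusted p = 0.00279). Nefl was 8.38, 8.17 and 8.02 against 6.75, 7.47 and 7.01, and it fell by 1.11 ± 0.14 (adjusted p = 0.00279). For both genes the embryo groups did not overlap, and embryo array 1 with NTD was the lowest. In yolk sacs the differences were 0.04 ± 0.14 for Nefm and −0.15 ± 0.14 for Nefl. The differences between tissues were −1.12 (adjusted p = 0.0621) and −0.96 (adjusted p = 0.159). A second Nefl probe set, at a mean level of 5.15, gave −0.56 in embryos and a difference between tissues of −0.44.

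Others of the list that fell in embryos were Elavl4, an RNA-binding protein of neurons (−1.04 ± 0.17), Dcx, a microtubule-binding protein of migrating neurons (−0.63 ± 0.09), and Pou4f1, a transcription factor of sensory neurons (−0.58 ± 0.09), with adjusted p of 0.0173, 0.00579 and 0.015. The other 3 Dcx probe sets, at mean levels of 3.71 to 4.17, gave 0.02, −0.09 and −0.16 in embryos. Elavl4 was 7.87, 7.79 and 7.37 without NTD and 6.48, 7.08 and 6.34 with NTD, so its groups did not overlap. Insm1, a zinc finger factor of newborn neurons, had a value of like size, −1.09 ± 0.23, with an adjusted p of 0.111. The 42 measured genes of neural progenitors and regional patterning did not share the pattern of the neuronal list: their median was −0.04 in embryos and −0.01 in yolk sacs, with no gene past the threshold in any of the comparisons. The mean of the 4 neural markers in embryos was 9.51, 9.47 and 9.55 without NTD and 9.09, 9.43 and 9.38 with NTD, and the part of this lower level in the neuronal result was not tested.

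On the control embryo array with NTD the neuronal list's median level was 6.155, against 5.79, 5.82 and 5.91 on the 3 control embryo arrays without NTD, and the median of the members' differences from the mean of those 3 was 0.16. Lhx9 was 6.21 in it, against 5.40, 5.59 and 5.77 in the others. This is 1 array and was not tested. Over the 1589 genes at an unadjusted p below 0.05 for the difference, the control arrays had the same sign for 45.8%, beside 48.6% for all genes.

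The neural crest and head mesenchyme list had medians of opposite sign in the tissues. Of 36 listed genes, 8 were lower and 1 higher in embryos at an unadjusted p below 0.05 (3.66% and 3.12% of all genes). In yolk sacs 12 were higher and 0 lower (5.55% and 3.32% of all genes). The median was −0.06 in embryos, 0.13 in yolk sacs and −0.27 for the difference between tissues. For that difference 14 members were lower and 0 higher at the unadjusted threshold (4.97% and 2.67% of all genes), and Epha3 alone passed the adjusted threshold. None of the list met the unadjusted threshold in both tissues. The list's median level was 7.59, 7.65 and 7.45 in embryos without NTD and 7.42, 7.51 and 7.47 with NTD, and 4.93, 4.97 and 4.78 against 5.01, 4.89 and 5.15 in yolk sacs. The groups overlapped in both tissues. The list was brighter in MEHP embryos (median level 7.55) than in MEHP yolk sacs (4.92). The 1427 genes over 1 log2 unit higher in control embryos than in control yolk sacs had similar medians. They were −0.05 in embryos, 0.13 in yolk sacs and −0.19 for the difference. Whether the crest list differed from those genes was not tested.

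The genes behind the embryo and yolk sac counts of the crest list were different ones. In embryos Prrx1, a homeobox factor of limb and head mesenchyme, fell by 0.60 ± 0.10 (adjusted p = 0.0228). Prrx1 was 8.14, 8.05 and 8.16 without NTD and 7.54, 7.54 and 7.47 with NTD, with no overlap. In yolk sacs Crabp1, a retinoic acid binding protein, had 0.66 ± 0.19 (adjusted p = 0.208), and the embryo value of Crabp1 was −0.00 ± 0.19. The 39 collagen and matrix genes had a like pattern, with a median of −0.07 in embryos, 0.09 in yolk sacs and −0.23 for the difference. For the difference 10 members were lower and 0 higher at the unadjusted threshold (4.97% and 2.67% of all genes). None passed the adjusted threshold, and the list's levels also overlapped in both tissues.

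**Figure D3:**
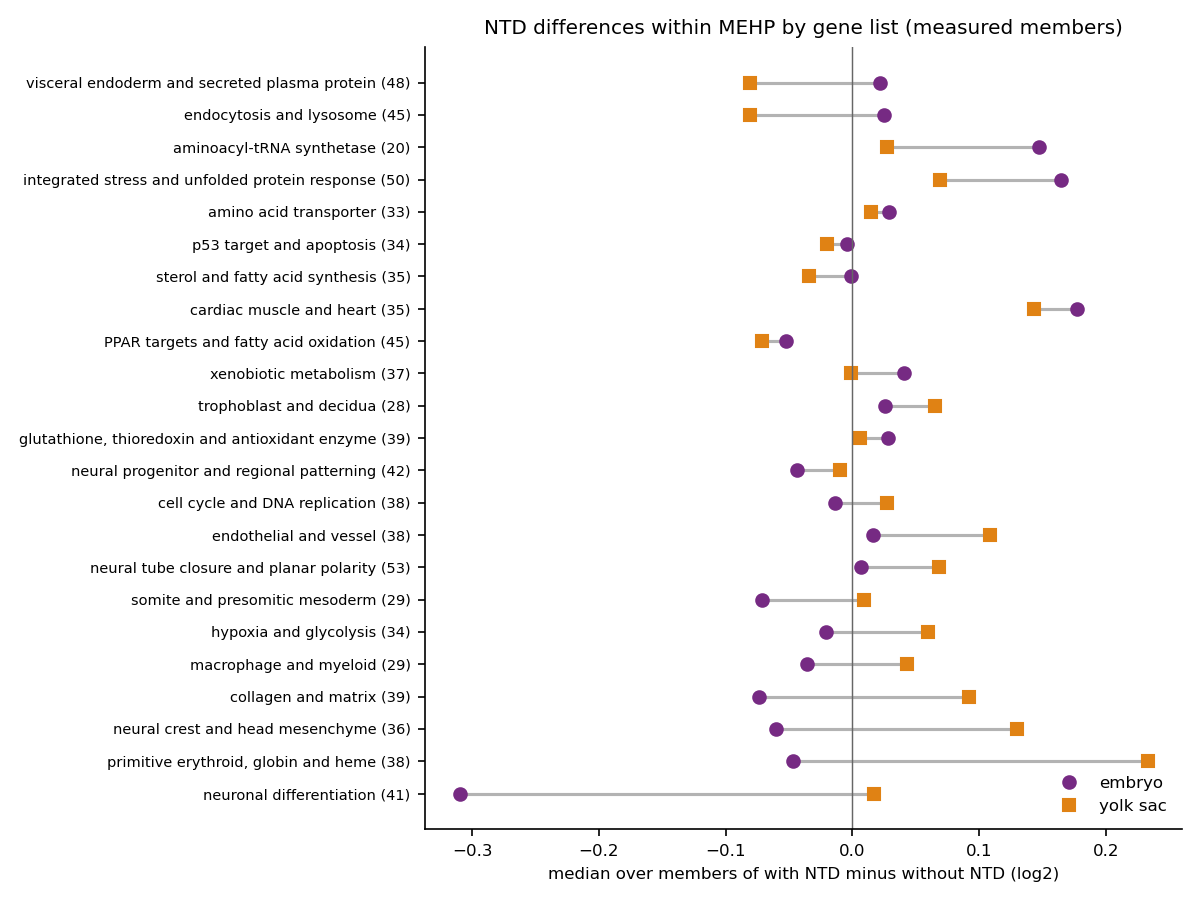
For 23 gene lists, all but the sex-linked one, the median log2 NTD difference over the measured members (number in parentheses) is shown for MEHP embryos (circles) and MEHP yolk sacs (squares), ordered by the median difference between tissues. Neuronal differentiation has the lowest embryo median (−0.31) with a yolk sac median of 0.02, neural crest, collagen and erythroid lists lie on opposite sides of 0, and the cardiac list is above 0 in both tissues (0.18 and 0.14).

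Genes that were higher in yolk sacs with NTD were more often embryo-preferring in the controls than genes in general. To describe this, each gene was given a tissue preference from the control arrays without NTD, which share no array with the MEHP comparison. This classification was chosen after the data were seen. Of all genes, 6.86% were over 1 log2 unit higher in control embryos than in control yolk sacs, and 7.92% were over 1 unit higher in control yolk sacs. Among the 24 genes that rose in MEHP yolk sacs with NTD, 16 (66.7%) preferred embryo and 2 preferred yolk sac, and among the 6 that fell, 0 preferred embryo and 3 preferred yolk sac.

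The same held below the adjusted threshold. Of the 1154 genes higher in yolk sacs with NTD at an unadjusted p below 0.05, 31.9% preferred embryo and 3.73% preferred yolk sac. Of the 690 lower genes, 0.58% preferred embryo and 37.8% preferred yolk sac. Over the 1427 embryo-preferring genes the median NTD difference was 0.13 in yolk sacs and −0.05 in embryos, and 81.1% of them were higher in yolk sacs with NTD. Over the 1646 yolk-sac-preferring genes the medians were −0.09 in yolk sacs and −0.004 in embryos, and 26.1% were higher in yolk sacs with NTD.

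Single arrays showed the shift in the yolk sac. Against the mean of the yolk sacs without NTD, the embryo-preferring genes had medians of 0.10, 0.10 and 0.20 on the 3 arrays with NTD. Each array without NTD, set against the other 2 of its group, gave 0.08, −0.06 and −0.03. The yolk-sac-preferring genes had −0.09, −0.07 and −0.11 with NTD, and 0.03, −0.03 and 0.00 without. Arrays with NTD lay beyond all those without for both classes, although 1 array without NTD came close for the first. Over all genes the Pearson correlation of tissue preference with the NTD difference was 0.355 in yolk sacs and −0.0815 in embryos, as a description.

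**Figure D4:**
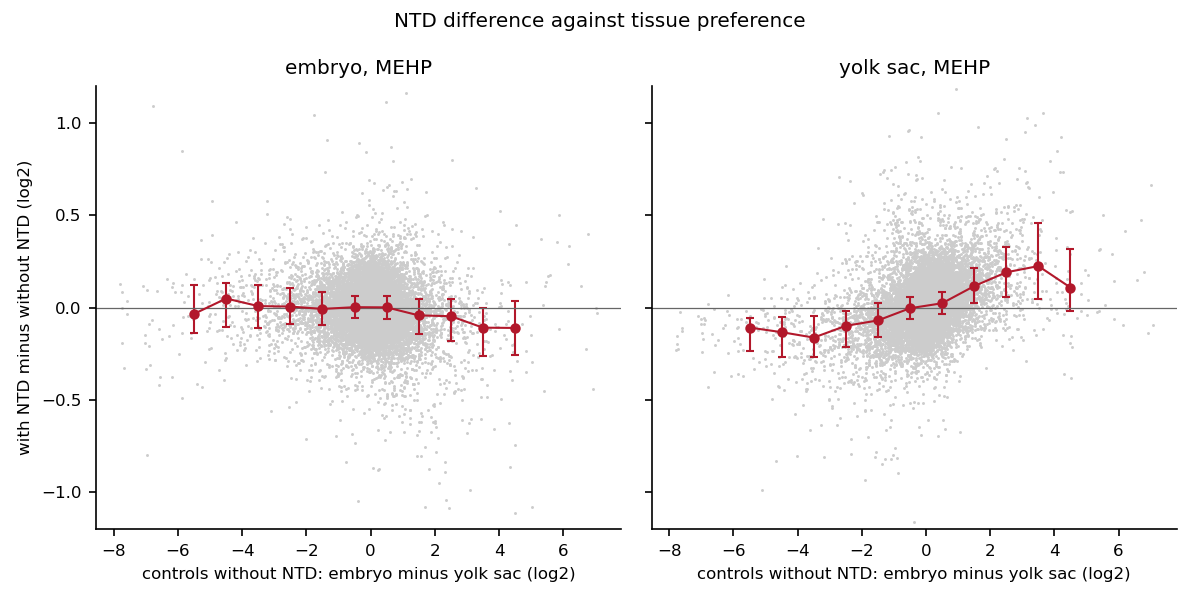
The log2 NTD difference in MEHP embryos (left) and MEHP yolk sacs (right) is plotted against the log2 difference of control embryos and control yolk sacs without NTD, for all genes (grey, 10 genes beyond the vertical axis), with the median and quartiles of bins of 1 log2 unit that hold at least 20 genes (red). The yolk sac medians pass from below 0 for yolk-sac-preferring genes to above 0 for embryo-preferring genes, and the embryo medians stay near 0 and end below it.

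Several genes differed in yolk sacs with little difference in embryos. Cdh2, which encodes N-cadherin, the adhesion molecule of neural and mesodermal cells, is named here, like S100a6 below, after its values were seen. Cdh2 was 4.30, 3.84 and 3.81 in yolk sacs without NTD and 6.22, 5.05 and 6.41 with NTD. Arrays 2 and 3 without NTD were at the nonspecific level of those arrays (3.815 and 3.832), so the size of the difference depends on the background there. The groups did not overlap, and control yolk sacs without NTD (4.65, 5.84 and 4.90) lay between the MEHP groups or among the arrays with NTD. The single control yolk sac with NTD was 4.54, below those controls. Cdh2 rose by 1.91 ± 0.29 (adjusted p = 0.0184), the embryo difference was 0.14 ± 0.29, and the difference between tissues was −1.77 (−2.64 to −0.89) with an adjusted p of 0.248.

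S100a6, a calcium-binding protein that preferred yolk sac in the controls, rose by 1.44 ± 0.25 in yolk sacs (adjusted p = 0.0347) and had 0.01 ± 0.25 in embryos. It was 6.65, 6.25 and 7.03 without NTD and 7.65, 8.24 and 8.36 with NTD in yolk sacs, and 7.34, 8.41 and 7.62 in control yolk sacs without NTD. The MEHP arrays with NTD were thus in the range of the controls without NTD, and the MEHP arrays without NTD were below it. The single control yolk sac with NTD, at 6.84, was also below that range.

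Gli3, a transcription factor that mainly represses Hedgehog target genes and is needed for neural tube patterning, was the only member of the neural tube closure list past the threshold in a tissue. It was 6.64, 6.80 and 6.59 in yolk sacs without NTD and 7.15, 7.18 and 7.15 with NTD, with no overlap. It rose by 0.48 ± 0.06 (adjusted p = 0.0071), against 0.01 ± 0.06 in embryos, and the difference between tissues was −0.47 (adjusted p = 0.0838). Gli3 probe sets at lower mean levels, 7.94 and 3.93, gave 0.19 and −0.02 in yolk sacs, and −0.14 and −0.01 in embryos. Their differences between tissues were −0.33 and 0.01, so the size of the yolk sac rise depended on the probe set. Of the 53 measured closure genes, 2 were higher and 2 lower in embryos at an unadjusted p below 0.05 (3.12% and 3.66% of all genes). In yolk sacs 11 were higher and 4 lower (5.55% and 3.32% of all genes).

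Cndp1, a dipeptidase, rose in yolk sacs by 0.72 ± 0.09 (adjusted p = 0.0071) and had −0.04 ± 0.09 in embryos, with a difference of −0.76 (adjusted p = 0.0621). It was 5.22, 5.33 and 5.16 without NTD and 5.79, 6.11 and 5.96 with NTD in yolk sacs, with no overlap. Pdxk, the kinase that makes the active form of vitamin B6, fell by 0.45 ± 0.07 (adjusted p = 0.0184), from 8.57, 8.71 and 8.61 to 8.21, 8.15 and 8.18, with −0.01 ± 0.07 in embryos. Sox4, a transcription factor of progenitors and young neurons, rose by 0.41 ± 0.07 in yolk sacs (adjusted p = 0.0315) and had −0.18 ± 0.07 in embryos. The other 7 Sox4 probe sets had embryo differences above 0, and the brightest of them gave 0.24 in embryos and 0.28 in yolk sacs, so the difference between tissues was −0.04 by that probe set and −0.59 by the one used. Uroc1, an enzyme of histidine breakdown, fell by 0.53 ± 0.09 in yolk sacs (adjusted p = 0.0358).

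Endocytosis and lysosome genes, which serve protein uptake in the yolk sac endoderm, were lower there as a list, with no single call. Of 45 endocytosis and lysosome genes, 11 were lower and 1 higher in yolk sacs with NTD at an unadjusted p below 0.05 (3.32% and 5.55% of all genes). In embryos 1 was lower and 2 higher (3.66% and 3.12% of all genes). The list's median level in yolk sacs was 10.74, 10.68 and 10.66 without NTD and 10.54, 10.40 and 10.37 with NTD, with no overlap. The median difference was −0.08 in yolk sacs, 0.03 in embryos and 0.14 between tissues. For the last, 6 members were higher and 0 lower at the unadjusted threshold (2.67% and 4.97% of all genes). The list was brighter in MEHP yolk sacs (median level 10.65) than in MEHP embryos (8.52). All 1646 yolk-sac-preferring genes had medians of −0.085 in yolk sacs, −0.004 in embryos and 0.085 between tissues. Whether the list differed from that class was not tested. Of 48 visceral endoderm and plasma protein genes, 7 were lower and 3 higher in yolk sacs. None of either list passed an adjusted threshold.

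Other cell types were measured beside these shifts. The 4 neural markers in yolk sacs were 3.58, 3.55 and 3.55 without NTD and 3.26, 3.39 and 3.53 with NTD, all under the nonspecific level, so the embryo-preferring genes that were higher did not include them. The 3 heart markers averaged 5.40, 5.08 and 5.08 without NTD and 5.86, 5.29 and 5.52 with NTD, which overlap. The 7 endoderm markers averaged 12.72, 12.65 and 12.67 without NTD and 12.57, 12.61 and 12.48 with NTD, which do not overlap. The 5 parietal endoderm markers averaged 7.43 to 7.49 without and 7.57 to 7.72 with NTD. The part of a changed mix of cells in the yolk sac result was not tested.

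Among the lists, chosen with earlier results known, that of the stress response had the most genes past the shared threshold. Of 50 listed genes of the integrated stress and unfolded protein response, 6 passed the threshold for the shared association, all higher (Atf5, Ddit3, Trib3, Asns, Pycr1 and Stc2), and 20 were higher and 0 lower at an unadjusted p below 0.05 (4.53% and 3.47% of all genes). In embryos 20 were higher and 0 lower at that threshold (3.12% and 3.66% of all genes). In yolk sacs 11 were higher and 1 lower (5.55% and 3.32% of all genes), and 7 were higher in both, beside 0.337% of all genes. The list's median was 0.17 in embryos, 0.07 in yolk sacs and 0.12 for the difference between tissues. For that difference 7 members were higher and 0 lower at the unadjusted threshold (2.67% and 4.97% of all genes), and none passed the adjusted threshold.

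Some of the called stress genes hold the letters to which ATF4 dimers are known to bind in amino acid response elements. The 300-base promoter windows (250 bases before to 50 after the annotated start, RefSeq on GRCm38.p6) were searched on both strands for TGATGNAA, a motif of that kind, and it was found in 3 of the 6 genes, beside 3.18% of the 14572 measured genes with a window. The windows are shown from 5′ to 3′ on the gene's strand because these genes passed for the shared association. Capitals mark the motif, which reads on the opposite strand in Trib3. Trib3 lies on the minus strand at chr2:152344011-152344310, Asns on the minus strand at chr6:7693160-7693459 and Pycr1 on the minus strand at chr11:120643699-120643998.
Trib3: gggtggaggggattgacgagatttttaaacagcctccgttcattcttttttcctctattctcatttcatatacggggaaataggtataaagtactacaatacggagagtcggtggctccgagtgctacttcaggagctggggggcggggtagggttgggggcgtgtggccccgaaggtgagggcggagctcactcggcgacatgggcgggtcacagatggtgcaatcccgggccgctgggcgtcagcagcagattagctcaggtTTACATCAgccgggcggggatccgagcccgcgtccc
Asns: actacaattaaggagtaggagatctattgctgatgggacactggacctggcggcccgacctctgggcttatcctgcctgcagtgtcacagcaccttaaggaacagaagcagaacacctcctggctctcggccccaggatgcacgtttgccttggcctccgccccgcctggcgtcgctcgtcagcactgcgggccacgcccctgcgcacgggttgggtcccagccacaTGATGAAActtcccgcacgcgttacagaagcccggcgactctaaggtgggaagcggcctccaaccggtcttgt
Pycr1: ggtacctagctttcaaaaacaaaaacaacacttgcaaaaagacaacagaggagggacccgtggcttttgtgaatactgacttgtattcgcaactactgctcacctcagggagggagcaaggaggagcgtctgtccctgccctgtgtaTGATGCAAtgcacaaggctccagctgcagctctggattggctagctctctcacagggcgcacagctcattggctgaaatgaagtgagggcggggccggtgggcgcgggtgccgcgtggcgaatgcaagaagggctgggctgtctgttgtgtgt
The windows of Ddit3, Atf5 and Stc2 do not hold these letters, and of the 44 stress list members with a window 10 do (22.7%). A match describes letters and is not a binding measurement.

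Pycr1, which makes proline, had the largest shared association among the 37 genes past that threshold. It was 7.16, 6.73 and 6.95 in embryos without NTD and 7.95, 7.83 and 8.55 with NTD, and 6.23, 5.97 and 6.07 against 6.87, 6.54 and 7.13 in yolk sacs. Neither tissue's groups overlapped. The shared association was 0.96 ± 0.13 (adjusted p = 0.00705), from 1.16 ± 0.19 in embryos and 0.75 ± 0.19 in yolk sacs, and the tissues differed by 0.41 with an interval of −0.15 to 0.96.

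Trib3, a pseudokinase that binds AKT and is raised by ATF4 and CHOP, was 5.86, 5.71 and 5.27 against 6.29, 6.54 and 6.72 in embryos and 6.82, 6.99 and 6.81 against 7.77, 7.35 and 7.69 in yolk sacs. The arrays with NTD were above those without in both tissues. Its shared association was 0.82 ± 0.13 (adjusted p = 0.0132), and the tissues differed by 0.17 (−0.36 to 0.71). A second Trib3 probe set, at a mean level of 6.08, gave 0.48 in embryos and 0.35 in yolk sacs. Atf5, a transcription factor of the same pathway, had a shared association of 0.71 ± 0.10 (adjusted p = 0.00705), 0.89 ± 0.14 in embryos and 0.53 ± 0.14 in yolk sacs.

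Ddit3, which encodes CHOP, was 6.52, 6.41 and 6.48 against 6.99, 6.91 and 6.97 in embryos and 6.81, 6.80 and 6.78 against 7.48, 7.08 and 7.36 in yolk sacs. Both tissues separated, by nearly the same amount. The shared association was 0.50 ± 0.07 (adjusted p = 0.0126), and the difference between tissues was −0.02 with an interval of −0.34 to 0.30. Under quantile normalization that small difference had the other sign (0.035). Asns, asparagine synthetase, had a shared association of 0.52 ± 0.09 (adjusted p = 0.0371) and Stc2, a secreted glycoprotein, 0.48 ± 0.09 (adjusted p = 0.0461).

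Part of the stress list was larger in embryos without passing the test of the difference. Chac1, which breaks down glutathione, was 5.10, 5.14 and 5.05 in embryos without NTD and 5.50, 6.23 and 6.91 with NTD, and 5.11, 4.99 and 5.26 against 5.29, 5.30 and 5.52 in yolk sacs. All arrays with NTD were above those without, by more in embryos. The differences were 1.11 ± 0.23 and 0.25 ± 0.23, and their difference of 0.86 had an adjusted p of 0.513. Sesn2, a stress-induced inhibitor of mTORC1, had 0.52 ± 0.13 in embryos and −0.28 ± 0.13 in yolk sacs, and the difference of 0.79 had an adjusted p of 0.274. Cebpb, a transcription factor that can pair with ATF4, had 0.31 ± 0.11 and −0.30 ± 0.11.

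Aminoacyl-tRNA synthetases, which charge tRNAs and include many ATF4 targets, were on the embryo side. Of 20 listed genes, 8 were higher and 0 lower in embryos at an unadjusted p below 0.05 (3.12% and 3.66% of all genes). In yolk sacs 0 were higher and 1 lower (5.55% and 3.32% of all genes). The list's median level was 10.09, 10.14 and 10.04 in embryos without NTD and 10.30, 10.21 and 10.27 with NTD, with no overlap, and 10.03, 10.16 and 10.02 against 9.95, 10.09 and 10.07 in yolk sacs, with overlap. The median difference between tissues was 0.13, with 4 members higher and 0 lower at the unadjusted threshold (2.67% and 4.97% of all genes). Sars, the seryl-tRNA synthetase, had 0.29 ± 0.06 in embryos against −0.03 ± 0.06 in yolk sacs, and the difference had an adjusted p of 0.318.

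Slc7a3, a transporter of cationic amino acids, showed the spread within a group. It was 5.29, 5.47 and 5.51 in embryos without NTD and 5.78, 7.53 and 7.59 with NTD, so array 1 with NTD lay near the arrays without. In yolk sacs it was 5.23, 5.27 and 5.06 against 5.40, 5.46 and 5.30. The difference between tissues was 1.35 ± 0.44 (adjusted p = 0.435). Without array 1 with NTD, picked here for its value, it was 1.94 (adjusted p = 0.000138). Over the 18 settings that leave out 1 array and change the fit, the difference was 1.03 to 1.94. It passed in 1 of them, the setting just named, and the adjusted p reached 0.752.

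**Figure D5:**
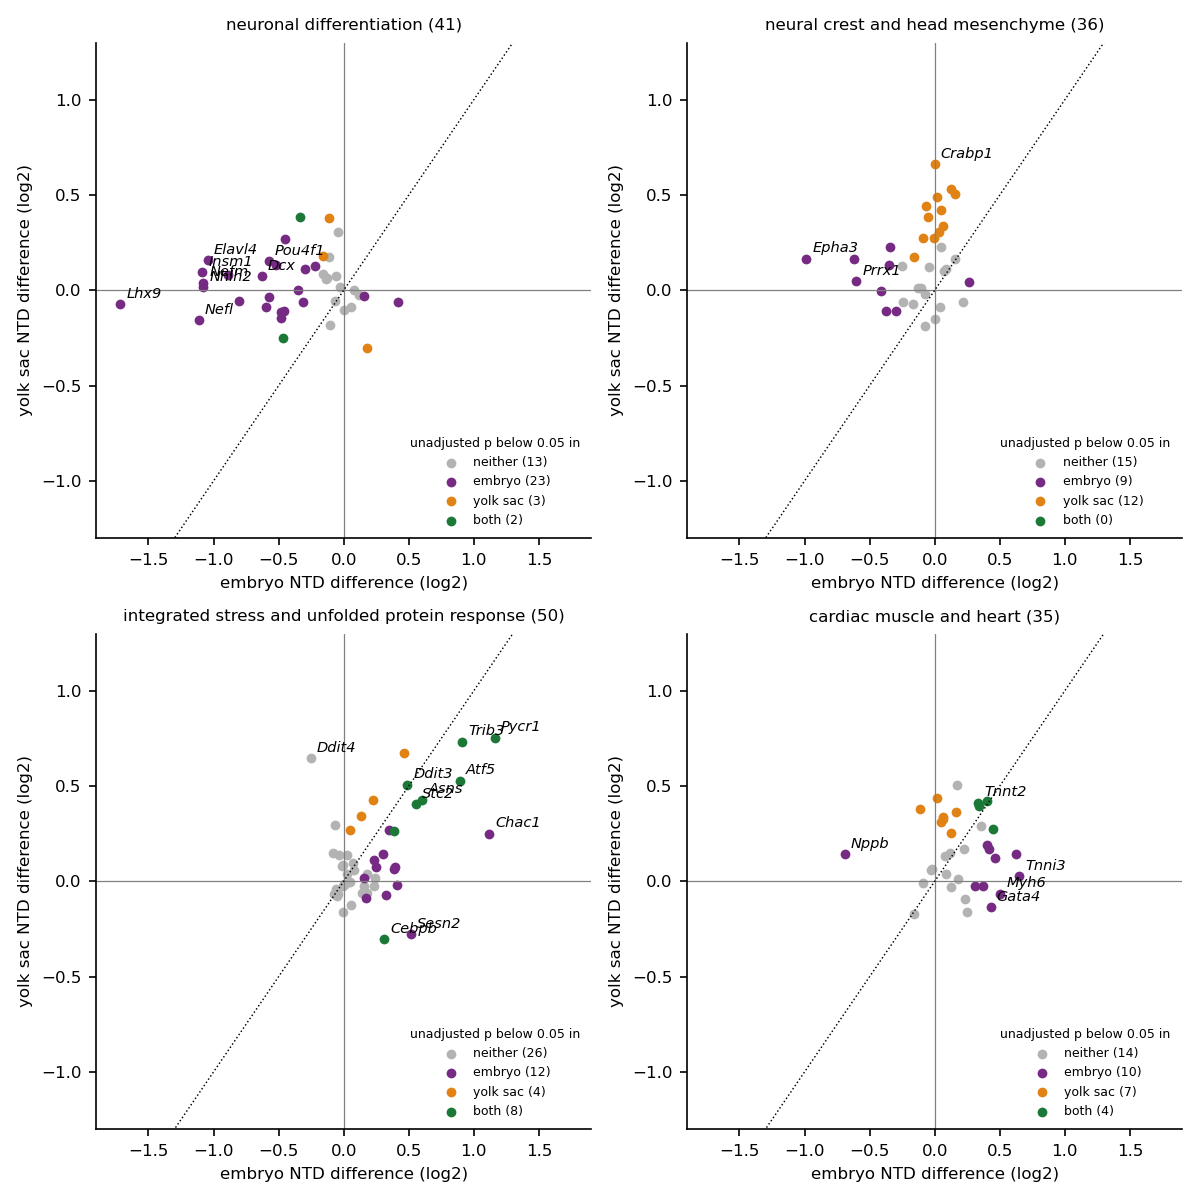
Each panel plots the log2 NTD difference in MEHP embryos (horizontal) against that in MEHP yolk sacs (vertical) for the measured members of 1 list, coloured by the tissue in which the unadjusted p was below 0.05, with equality as a dotted line. Neuronal genes spread to the left along the embryo axis, crest genes spread left or up but not along the line, and stress and cardiac genes lie mostly up and to the right.

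Prcp encodes a lysosomal prolylcarboxypeptidase and was the gene past the adjusted threshold in both tissues. It was 6.30, 6.53 and 6.58 in embryos without NTD and 7.40, 7.11 and 7.12 with NTD, and 7.32, 7.75 and 7.58 against 8.28, 8.43 and 8.12 in yolk sacs. Neither pair overlapped. In embryos it rose by 0.73 ± 0.11 (adjusted p = 0.00968). The yolk sac rise was 0.72 ± 0.11 (adjusted p = 0.0184), and the tissues differed by 0.01 (−0.31 to 0.34). Control yolk sacs without NTD were at 7.89, 7.94 and 7.90, between the MEHP groups, and the single control yolk sac with NTD was at 7.37. A second Prcp probe set, at a mean level of 6.07, gave 0.43 in embryos and 0.85 in yolk sacs. The others, at mean levels of 5 and 4.45, gave 0.05 and 0.08 in embryos. In yolk sacs they gave −0.22 and 0.13.

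Other genes of the shared association outside the stress list were Adat2, a subunit of the tRNA adenosine deaminase (0.70 ± 0.10, adjusted p = 0.00713), and Pck2, the mitochondrial phosphoenolpyruvate carboxykinase (0.61 ± 0.11, adjusted p = 0.0275). Pck2 was 7.18, 7.12 and 7.21 in embryos without NTD and 7.44, 7.96 and 8.10 with NTD, and 6.32, 6.35 and 6.37 against 6.61, 6.96 and 7.12 in yolk sacs, with no overlap in either. Gatm, which makes the precursor of creatine, fell in the shared association by 0.59 ± 0.09 (adjusted p = 0.018). It was 6.42, 6.59 and 6.70 against 5.68, 6.09 and 5.95 in embryos and 5.55, 5.75 and 5.38 against 5.14, 5.06 and 4.95 in yolk sacs, again without overlap. Morn2 fell by 0.47 ± 0.08 (adjusted p = 0.025). Lhx9, Nefl, Nefm and Hoxd10 also passed for the shared association, and their difference was in embryos, while the yolk sac values were −0.07, −0.15, 0.04 and −0.11.

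The heart list had medians above 0 in both tissues, with no member past the adjusted threshold in either. Of 35 measured genes, 13 were higher and 1 lower in embryos at an unadjusted p below 0.05 (3.12% and 3.66% of all genes). In yolk sacs 11 were higher and 0 lower (5.55% and 3.32% of all genes), and 4 were higher in both (0.337%). The medians were 0.18 and 0.14, and the median of the difference was 0.02. The list's median level was 8.08, 8.24 and 7.86 in embryos without NTD and 8.12, 8.03 and 8.31 with NTD, which overlap, and 4.70, 4.63 and 4.51 against 4.76, 4.79 and 4.94 in yolk sacs, which do not. For the shared association 18 were higher and 0 lower at the unadjusted threshold (4.53% and 3.47% of all genes), and 1 passed the adjusted one. That gene was Tnnt2, cardiac troponin T, at 10.55, 10.54 and 10.50 against 10.93, 10.72 and 10.94 in embryos and 4.12, 3.94 and 4.23 against 4.47, 4.65 and 4.41 in yolk sacs. Both pairs of groups were apart, the yolk sac pair at low levels. It rose in the shared association by 0.37 ± 0.06 (adjusted p = 0.0126), and the tissues differed by −0.08 (−0.32 to 0.16).

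The members behind the heart counts were partly different. Tnni3, cardiac troponin I, had 0.65 ± 0.14 in embryos against 0.03 ± 0.14 in yolk sacs (the difference had an adjusted p of 0.429), and Myh6, a cardiac myosin heavy chain, 0.50 ± 0.12 and −0.06 ± 0.12 (adjusted p of the difference 0.352). Nppb, a natriuretic peptide, went the other way in embryos, at −0.69 ± 0.26 (adjusted p = 0.598).

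Erythroid genes had the second largest gap between list medians, −0.05 in embryos and 0.23 in yolk sacs, but no member met even the unadjusted threshold for the difference. The list's median level in embryos was 7.03, 7.24 and 6.48 without NTD and 7.30, 6.45 and 6.44 with NTD, and in yolk sacs 7.80, 8.36 and 7.86 against 8.86, 7.87 and 8.09. Groups overlapped in both tissues. The remaining lists, among them the cell cycle, p53 target, PPAR target and xenobiotic metabolism lists, had median differences between tissues within 0.12 log2 units of 0, and none of their members passed for the difference.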

How the data were processed

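Gene expression was measured on Affymetrix arrays in 20 samples. Per the submitters' processing notes, the deposited log2 values were made with RMA, and the notes also list R 2.15.1 and limma. The authors' deposited comparison tables give a ratio and p-values per probe set. Their NTD tables pool control and MEHP arrays (4 with and 6 without NTD) and hold no adjusted p under 0.05 (lowest 0.191 in embryo, 0.237 in yolk sac). Groups followed the column names of the expression table. The class means in all 4 comparison tables fit these groups best among 1022 splits each. The headings of a second table would give 13 of 20 arrays another group and were not used.

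The table has 45141 probe sets, of which 104 control and 6670 unnamed ones were dropped, and each of 20794 genes took its probe set with the highest mean. A match on the Entrez identifier changed the symbol of 3025 of 38367 probe sets. limma 3.58.1 in R 4.3.3 fitted 8 group means over 20 arrays with empirical Bayes variances, and the Benjamini-Hochberg threshold was 0.05 over all genes. Values after ± are limma's SE unless named SD. Precision is limited by having 3 arrays per group, and a gene's median SE was 0.0884 in each tissue, 0.125 for the difference and 0.0625 for the shared association. In simulated data for the difference, 200 of 20794 genes were moved at once, 100 at each size. The fit found 44% of those moved by 0.5 log2 and 94% of those moved by 1, with 6 false calls. These shares do not carry over to the real data, where 3 genes passed, because the adjusted threshold depends on how many genes move. Beyond 1 log2, Lhx9 and Epha3 passed in the real data, while Cdh2 (−1.77), Elavl4 (−1.20) and Slc7a3 (1.35) were among those that did not. The unit of every level is log2 as deposited, so a level is comparable between samples for 1 probe set and not between genes.

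Genes named are the 12 with the smallest p or largest size per direction for the difference, 6 per direction for the shared association, 6 per tissue, and up to 4 members per list with the largest difference plus any past the threshold. The members and the 24 gene lists (891 entries, 18 unmeasured) were chosen with earlier results of these data known.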

Additional observations from a re-analysis of the deposited data

Results flagged for a closer look

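The NTD difference within MEHP differed between embryo and yolk sac, by the test of that difference over all genes, for 3 genes. The embryo minus yolk sac value was −1.65 for Lhx9, −1.15 for Epha3 and −0.65 for Zfp462. Lhx9 and Epha3 were lower with NTD in embryos and under the nonspecific control level in yolk sacs, while Zfp462 was above that level in both tissues, with differences of opposite sign. In the single control array with NTD of each tissue, set against the mean of the 3 without, Lhx9 was 0.63 higher in embryo and 0.05 lower in yolk sac, which 1 array cannot test.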

How the results depend on the processing

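The columns of the deposited table carry no replicate number, so no label pairs an embryo with a yolk sac array. As a hint from the data, each of the 6 MEHP embryo arrays correlated best, in its deviations from the group mean, with the yolk sac array at the same table position (r of 0.09 to 0.24, and −0.05 to 0.05 in controls without NTD). The sex-linked gene Ddx3y was also high or low at the same table positions in both tissues. Whether arrays at the same position share a conceptus was not tested. With table position as a random replicate block, chosen after seeing the data, 3, 37, 20, 30 and 135 genes met the criteria for the difference, the shared association, embryos, yolk sacs and the same sign in both. With it as a fixed replicate block, which leaves fewer degrees of freedom, 0 passed for the difference (limma, 1663 at an unadjusted p below 0.05), and Lhx9, Epha3 and Zfp462 had adjusted p of 0.122, 0.17 and 0.216. The number of genes past the threshold for the difference was 3 and stayed at 3 under quantile normalization, cyclic loess, array weights and every probe set tested on its own. It was 0 with the 12 MEHP arrays alone (1803 at an unadjusted p below 0.05) and 0 without dim genes (1017), 7 with trend and robust variances, 5 with the nonspecific level as a covariate and 7 without the 2 embryo arrays that stood apart, a setting chosen after seeing the data. Leaving out each array in turn gave 0 to 9. It was 0 without embryo array 1 or 2 without NTD, yolk sac array 2 without NTD or yolk sac array 3 with NTD. Without embryo array 3 without NTD or embryo array 2 with NTD it was 9. Lhx9 kept a difference of −1.87 to −1.40 and passed in 14 of 18 such settings, Epha3 −1.26 to −1.06 in 14, and Zfp462 −0.71 to −0.59 in 5, leaving aside the 2 settings that drop a lone control array with NTD and change nothing. For the shared association Pck2, Hoxd10, Nefm and Morn2 passed in 8, 6, 9 and 12 of the 18.

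The shared count of 37 was 92 over every probe set and 7 to 47 with an array left out (7 without yolk sac array 3 with NTD, 12 without embryo array 1 or 2 without NTD or yolk sac array 1 without NTD, and 22 without yolk sac array 2 without NTD or embryo array 3 with NTD). The embryo count of 20 was 12 with the MEHP arrays alone, 5 with the tissue fitted alone, 7 without dim genes, 33 with trend and robust variances, 31 over every probe set and 7 to 28 with an array left out (7 and 10 without embryo array 2 and 1 without NTD). The yolk sac count of 30 was 0 with the tissue fitted alone (2002 at an unadjusted p below 0.05), 59 without dim genes, 68 with trend and robust variances, 77 with array weights, 53 over every probe set and 4 to 59 with an array left out (4 without yolk sac array 2 without NTD or 3 with NTD, 59 without array 1 with NTD). The 134 genes at an unadjusted p below 0.05 in both tissues with the same sign were 311 over every probe set, and 102 to 147 with an array left out. The cause was not tested for these.

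Of 4203 values of 142 results for single genes, 4069 kept direction and side, 94 no longer passed, 22 passed where they had not and 18 turned sign. The last were differences that were never past the threshold. Among them, Ddx3y and Kdm5d are sex-linked genes whose levels varied widely within each MEHP group. Ddit3 gave 0.035 under quantile normalization and 0.007, 0.002, 0.069 and 0.008 with an array left out (range −0.135 to 0.069), Cubn −0.055 and −0.013 (range to 1.139), Ddx3y −0.010 with the covariate and −0.608, −0.649, −1.435, −1.349, −0.716 and −0.694 with an array left out (range to 1.612), and Kdm5d 0.874, 0.199, 0.343 and 0.665 (range from −1.906). For embryo-preferring genes the yolk sac median was 0.10 to 0.19 over the settings tried, and for yolk-sac-preferring genes −0.12 to −0.07.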
